A study of Mus musculus with 6 samples.

Results

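The lysosome is the acidic compartment in which a cell breaks down material it has taken up or is recycling. Soluble hydrolases cleave lipids, sugar chains and proteins in its lumen, glycosylated membrane proteins line its wall, and a proton pump built from a membrane sector (V0) and a cytosolic sector (V1) keeps it acid. TFEB, TFE3 and MITF, transcription factors of the MiT family, are known activators of many of these genes, and macrophages are rich in lysosomes. The genes described here are 43 listed mouse lysosome genes, with cathepsins left out: 23 hydrolases or hydrolase helpers (8 for sphingolipids, 6 for glycosaminoglycans, 5 for glycoprotein sugars and glycogen, 4 others including granulin), 3 genes of lipid and sterol handling, 5 membrane proteins, 3 MiT factors, 3 V0 subunits and 6 genes of V1 or the pump's accessory subunit. They were picked by name and found on the array through the RefSeq accession of their probes, with the brightest probe standing for a gene that had several. All 43 were on the array and well above background on all 6 arrays, so that all 43 were among the 13247 genes tested.

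The cells were Tot2, a mouse myeloid progenitor line made from an Irf8 knockout animal, so that every group, control included, carries that knockout. They were transduced by retrovirus with the empty MSCV-puro vector (control), with a vector for FLAG-tagged IRF8 or with a vector for FLAG-tagged KLF4, and were cultured with granulocyte-macrophage colony-stimulating factor, placed under puromycin and harvested at 4 days. IRF8 and KLF4 are transcription factors of monocyte development. Each group was measured on 2 arrays, numbered 1 and 2 for the experiments, which the series describes as independent. With 1 cell line and 2 arrays a group, the p-values measure the spread between these arrays. Total RNA was measured in bulk, so that fewer cells of a type and less RNA per cell cannot be told apart.

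Signals are given as log2 of the array's processed intensity minus the 75th percentile of that array, so that a value of 0 is the signal of a probe at that percentile. Such values compare the same gene between arrays and not different genes with each other. A gene was called where the Benjamini-Hochberg adjusted p of the limma fit over all genes tested was below 0.05. Irf8 itself gave log2 signals of 0.49 and 0.64 in control, 2.94 and 3.05 in IRF8-labelled and 2.18 and 2.16 in KLF4-labelled cells. Klf4 gave -1.62 and -1.28 in control and 4.46 and 4.61 in IRF8-labelled cells, but only -1.56 and -1.33 on the arrays labelled KLF4. The Klf4 probe therefore did not mark the KLF4-labelled arrays. Where this probe lies in the gene was not analysed here, so it cannot check whether the vector's own transcript was present, and the groups are named by their labels throughout.

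An array had 47.1% to 56.8% of its probes well above background, and no spot was saturated. The median difference of all genes tested from control was -0.13 in IRF8-labelled and -0.16 in KLF4-labelled cells and it was -0.01 between those groups. Scaling on the spike-in controls moved these medians to -0.26, -0.14 and -0.17, and scaling on the array median moved them to -0.17, -0.04 and -0.17. Of 8 monocyte and macrophage markers, IRF8-labelled cells had 6 called higher and 1 lower, and KLF4-labelled cells had 5 called higher. The marker that was lower was Ly6c1, whereas Csf1r and Mrc1 were 5.51 and 6.66 above control in IRF8-labelled and 3.79 and 2.40 above it in KLF4-labelled cells. The summed signal of that list, in multiples of the 75th percentile, was 413 to 516 in control, 407 to 419 in IRF8-labelled and 414 to 563 in KLF4-labelled cells. In control, Ly6c1 made up most of that sum, at a mean log2 signal of 8.76, and the sum does not show the rise of the other markers. All 5 tested neutrophil markers were called lower in IRF8-labelled cells and 3 in KLF4-labelled cells, with summed signals of 240 to 269, 7.23 to 7.71 and 131 to 156, and Mmp8 was above background on no array. Of 7 tested progenitor markers, 4 were called lower and 1, Cd34, higher in IRF8-labelled cells and 2 lower in KLF4-labelled cells, with summed signals of 1630 to 2230, 600 to 748 and 1180 to 1840, and Kit was above background on no array. Markers of basophils and mast cells summed to 3.99 to 4.21, 0.290 to 0.398 and 1.60 to 1.69 in those groups, and Fcer1a, Ms4a2 and Gata2 were above background on no array. In control and KLF4-labelled cells Mcpt8 made up most of that sum. Only 2 of these 6 markers were tested. Mcpt8 was called lower in both transduced groups, at -4.33 and -1.36, and Prss34 was not called, at 0.25 and 0.35. Fibroblast markers summed to 0.233 to 0.278 in control, 0.187 to 0.254 in IRF8-labelled and 2.15 to 2.25 in KLF4-labelled cells, and Dcn and Pdgfrb were above background on no array. Thy1 of that list gave -3.68 and -3.14 in control and 0.95 and 1.09 in KLF4-labelled cells, where it made up most of the sum. The other tested genes of that list, Col1a1 and Col1a2, differed from control by -0.82 and 0.21 there and were not called. With the experiment as a block, Ngp and Lcn2 (neutrophil), Elane and Flt3 (progenitor) were also called lower and Itgam and Mertk (monocyte) higher in KLF4-labelled cells, and Mpo lower and Flt3 higher in IRF8-labelled cells. The markers named in these lists were picked after their values were seen. These changes in marker genes moved with the lysosome results below, and their part in them was not tested.

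In IRF8-labelled cells the lysosome genes rose broadly. Of the 43, 33 were called higher than control and 1, Neu1, was called lower, beside 25.8% and 35.7% of all genes tested. Their median difference was 1.07, against -0.13 for all genes tested. Of the 43, 22 were at least 2-fold higher, beside 15% of all genes tested. The 2 IRF8-labelled and 2 control values did not overlap for 40 of the 43, beside 80.3% of all genes tested. In KLF4-labelled cells 21 were called higher and 0 lower, beside 10.4% and 8.85% of all genes tested. The median difference was 0.39, against -0.16 for all genes tested. Only 4 of the 43 were at least 2-fold higher, beside 6.42% of all genes tested. The count of 0 lower is that of the limma fit: at an unadjusted p below 0.05 it had 1, Arsb, and with limma's trend and robust settings the counts were again 0 and 1. With the experiment as a block, 2 genes, Arsb and Idua, were called lower. With the mean of a gene's probes or its dimmest passing probe, 1 was.

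The number of lysosome genes called higher in KLF4-labelled cells moved with the arrays used more than that in IRF8-labelled cells. The 21 became 6 and 13 without control array 1 or 2, 10 and 11 without IRF8-labelled array 1 or 2, and 7 and 5 without KLF4-labelled array 1 or 2. The 33 of IRF8-labelled cells was between 30 and 33 in the same series of fits. Of the called genes, 30 of 34 in IRF8-labelled cells, 5 of 21 in KLF4-labelled cells (Psap, Gm2a, Lipa, Npc1 and Mitf) and 21 of 32 in the direct comparison kept their call without each array in turn. Those that lost it in IRF8-labelled cells were Arsa, Neu1, Manba and Atp6v1h. In the direct comparison they were Arsa, Smpd1, Ids, Neu1, Manba, Man2b1, Lamp1, Lamp2, Mcoln1, Atp6v0c and Atp6v1d. With scaling on the spike-in controls, 3 and 21 were called higher in KLF4-labelled and IRF8-labelled cells, at medians of 0.42 and 0.94. Over all genes tested, 53.9% of the calls in KLF4-labelled cells were higher, a share that was 67% with quantile normalization, 87.8% with median scaling and 89.5% with spike-in scaling. In IRF8-labelled cells that share was 41.9%, and 40.4% to 45.1% with these scalings. No lysosome gene that was called changed direction under these scalings.

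**Figure D1:**
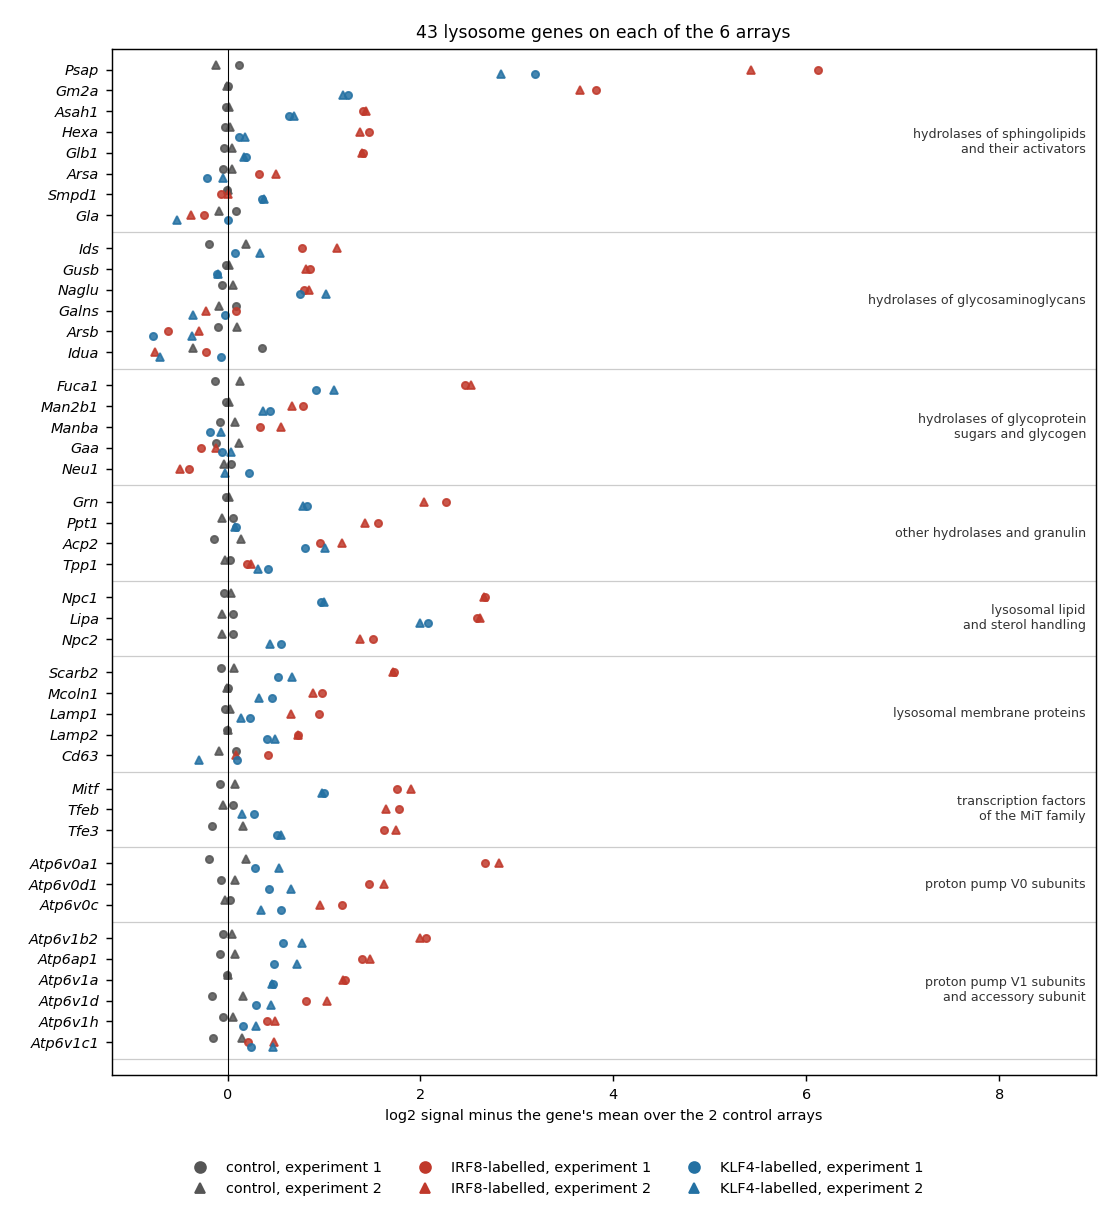
Each row is a lysosome gene and each point is 1 array: log2 signal minus the mean of that gene over the 2 control arrays, with circles for experiment 1 and triangles for experiment 2. IRF8-labelled arrays lie to the right of control for most rows, farthest for Psap, and KLF4-labelled arrays mostly lie between them.

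IRF8-labelled and KLF4-labelled cells were also compared directly, which tests the difference between the vectors. Of the 43 genes, 30 were called higher in IRF8-labelled cells and 2, Neu1 and Smpd1, lower, beside 23.7% and 26.8% of all genes tested. The median difference was 0.62, against -0.01 for all genes tested. At least 2-fold higher were 13 of the 43, beside 10.1% of all genes tested. Groups did not overlap for 35 of the 43, beside 75.5% of all genes tested, so that this count says little about the lysosome genes. Over all genes tested, 46.9% of the calls of this comparison were higher, and 35% with median scaling, where 22 lysosome genes were called higher. With spike-in scaling the counts were 11 higher and 0 lower. Since control arrays are shared, the differences of the 2 vectors from control are given side by side for each gene and not as an overlap.

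**Figure D2:**
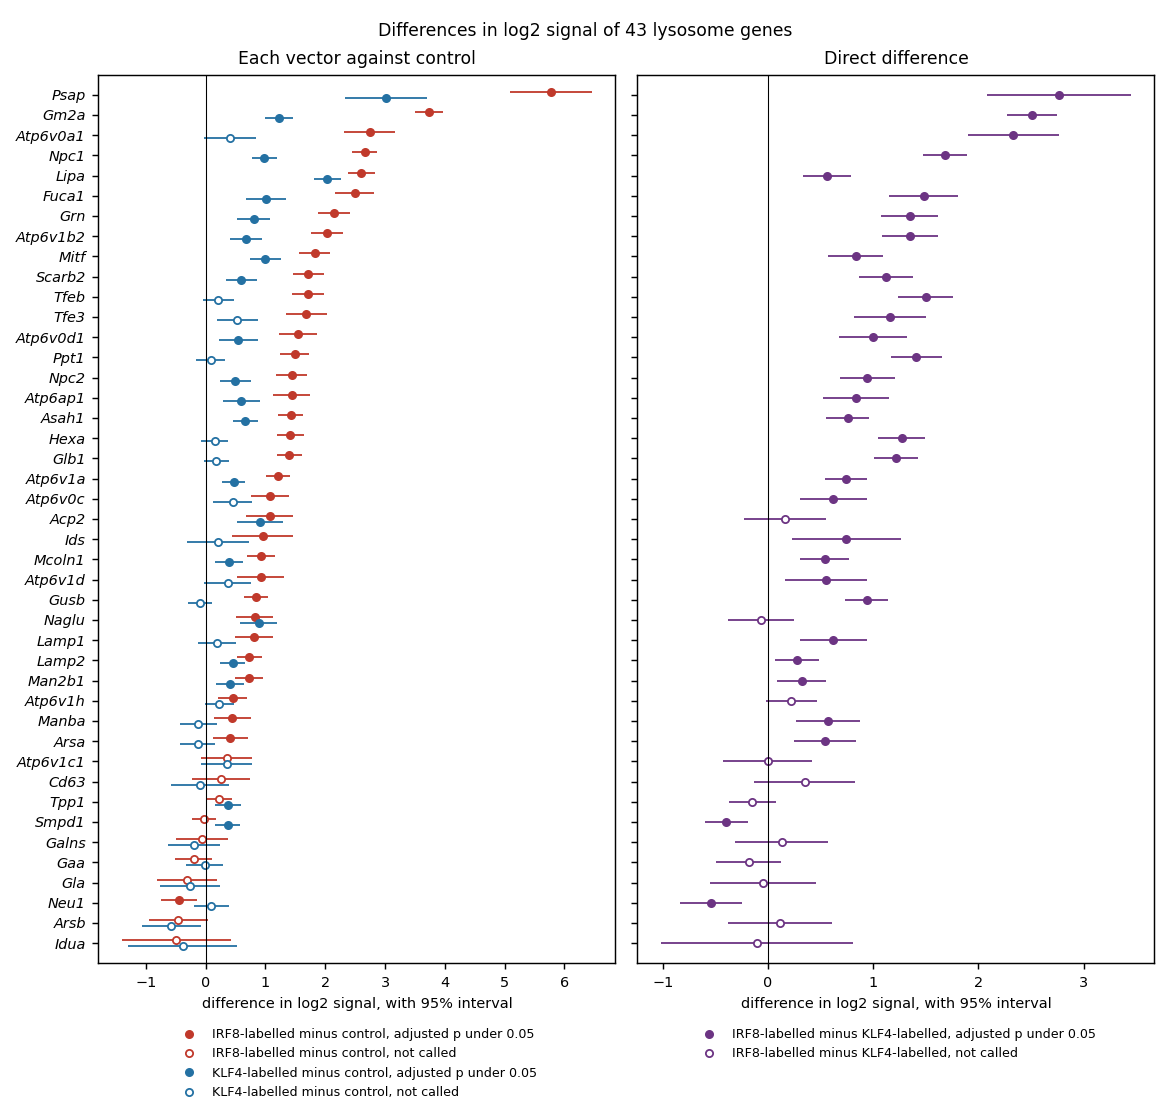
Differences in log2 signal of the 43 lysosome genes with their 95% intervals from the limma fit, ordered by the difference between IRF8-labelled cells and control; the left panel shows each vector against control and the right panel the direct difference. Filled points had an adjusted p below 0.05 and open points did not: 34, 21 and 32 genes were called in the 3 comparisons.

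All 3 MiT factors rose in IRF8-labelled cells, where 25.8% of all genes tested were called higher. Tfeb, which moves to the nucleus when nutrients are short and activates lysosome genes there, gave log2 signals of -0.49 and -0.59 in control, 1.24 and 1.10 in IRF8-labelled and -0.27 and -0.39 in KLF4-labelled cells. IRF8-labelled arrays were above both other groups, and KLF4-labelled arrays lay just above control with no overlap. The difference from control was 1.71 ± 0.10 (SE, adjusted p = 0.000161) in IRF8-labelled cells, or 3.27-fold. It was 0.21 ± 0.10 in KLF4-labelled cells (adjusted p = 0.194, and 0.0284 with the experiment as a block). Directly compared, Tfeb was 2.83-fold higher in IRF8-labelled cells (adjusted p = 0.000463).

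Tfe3, a close relative of Tfeb, gave 2.24 and 2.56 in control, 4.02 and 4.15 in IRF8-labelled and 2.91 and 2.95 in KLF4-labelled cells. The 3 groups did not overlap. Its differences from control were 1.69 ± 0.13 (adjusted p = 0.000366) and 0.53 ± 0.13 (adjusted p = 0.0520, and 0.0173 with the block), and the direct difference of 1.16 ± 0.13 was called (adjusted p = 0.00201). Mitf, the factor of the family best known from pigment cells, mast cells and osteoclasts, gave 1.13 and 1.28 in control, 2.96 and 3.11 in IRF8-labelled and 2.21 and 2.19 in KLF4-labelled cells. It alone of the 3 was called in all comparisons, at 1.83 ± 0.10 (adjusted p = 0.000135), 0.99 ± 0.10 (adjusted p = 0.00372) and 0.83 ± 0.10 (adjusted p = 0.00241). A further probe of Mitf gave 1.91, 1.22 and 0.68 for these differences, and a further probe of Tfe3 gave 1.81, 0.65 and 1.16. That Tfe3 probe was called in KLF4-labelled cells (adjusted p = 0.00882), so that the result for Tfe3 there hung on the probe.

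MiT factors are known to bind CACGTG, in particular within TCACGTGA, in promoters of lysosome genes, so the promoters of the listed genes are described here. RefSeq windows from 250 bases before to 50 bases after the start (GRCm38.p6) were at hand for 37 of the 43 genes, in 45 entries, and both strands were searched. CACGTG was found in 9 of the 37 genes (24.3%), in 11.4% of the tested genes with such an entry, and in 7.15% of all 32851 windows of this length. All 9 also held it with a T before it or an A after it (TCACGTG on either strand), which 6.67% of tested genes and 3.77% of all windows did. The full TCACGTGA, which contains the shorter motifs, was in 4 genes, Atp6v0d1, Atp6v1a, Gla and Mcoln1 (10.8%), against 2% of tested genes and 0.974% of all windows. TCATGTG, a variant of the shorter motif, was found in 6 genes (16.2%) and in 3.01% of tested genes. The Krüppel-like factor motif GGGTGTGG was in 2 genes (5.41%) and in 4.66% of tested genes. Of the interferon regulatory factor motifs, GAAA, any 2 bases, GAAA was in 2 genes (5.41%, against 3.85% of tested genes) and GGAA, any 2 bases, GAAA in 1 (2.70%, against 2.78%). A match describes letters in the window and is not a measured binding site.

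Stretches of 80 bases from 8 of the 9 promoters with CACGTG are shown, to set the genes that carry it beside how they moved; that of Atp6v0d1 crosses the start. Capitals mark CACGTG with its flanking T or A where present. Those of Mcoln1 (chr8:3500439-3500518, plus strand), Lamp1 (chr8:13159081-13159160, plus strand), Glb1 (chr9:114400998-114401077, plus strand), Naglu (chr11:101070014-101070093, plus strand) and Arsa (chr15:89477425-89477504, minus strand) end at the last base before the start. Those of Atp6v1a (chr16:44139350-44139429, minus strand), Gaa (chr11:119267783-119267862, plus strand) and Gla (chrX:134601176-134601255, minus strand) lie farther upstream, and all are written 5′ to 3′ on the strand of the gene.
Mcoln1: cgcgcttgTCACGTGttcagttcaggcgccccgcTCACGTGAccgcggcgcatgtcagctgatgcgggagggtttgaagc
Lamp1: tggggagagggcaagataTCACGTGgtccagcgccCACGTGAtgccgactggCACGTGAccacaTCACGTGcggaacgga
Glb1: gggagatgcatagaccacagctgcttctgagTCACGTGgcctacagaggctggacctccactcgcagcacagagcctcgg
Naglu: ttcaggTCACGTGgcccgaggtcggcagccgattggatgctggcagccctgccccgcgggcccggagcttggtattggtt
Arsa: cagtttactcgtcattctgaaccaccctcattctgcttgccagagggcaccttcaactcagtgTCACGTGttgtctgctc
Atp6v1a: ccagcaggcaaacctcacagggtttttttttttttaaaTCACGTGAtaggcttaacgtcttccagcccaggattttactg
Gaa: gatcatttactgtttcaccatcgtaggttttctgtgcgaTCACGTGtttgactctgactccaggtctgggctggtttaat
Gla: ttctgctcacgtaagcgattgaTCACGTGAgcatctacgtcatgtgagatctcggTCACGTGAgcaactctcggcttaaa
Lamp1 holds 4 such sites within the stretch, Mcoln1 and Gla hold 2, and the others 1.

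The genes with CACGTG did not have the larger median difference. The 9 genes with CACGTG had a median difference from control of 0.82 in IRF8-labelled cells, with 7 called higher, and the 28 genes with an entry and without it had 1.25, with 22 called higher. In KLF4-labelled cells the medians were 0.19 and 0.41. Gaa and Gla, which hold the motif, were called in no comparison, whereas Psap and Gm2a, with the largest rises, hold it in none of their windows. The genes without CACGTG include Atp6v0c, Grn, Ppt1, Scarb2 and Tpp1, which hold the variant TCATGTG. This split therefore does not separate genes with and without a MiT motif, and whether the motifs play a part was not tested.

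Among the genes of sphingolipid breakdown, 6 of 8 rose in IRF8-labelled and 4 of 8 in KLF4-labelled cells. These are 75% and 50%, beside 25.8% and 10.4% of all genes tested. Psap, which encodes prosaposin, the precursor of the saposins that present sphingolipids to their hydrolases, moved most. It gave 3.07 and 2.84 in control, 9.08 and 8.39 in IRF8-labelled and 6.14 and 5.79 in KLF4-labelled cells. The groups were far apart, and in each the array of experiment 2 was lower. Psap was 54.8-fold higher in IRF8-labelled cells than in control (5.78 ± 0.27, adjusted p = 8.16e-05) and 8.07-fold higher in KLF4-labelled cells (3.01 ± 0.27, adjusted p = 0.00223). The direct difference was 2.76 ± 0.27 (adjusted p = 0.00121).

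Gm2a, the activator that lifts GM2 ganglioside out of the membrane for hexosaminidase A, gave 0.99 and 0.98 in control, 4.80 and 4.64 in IRF8-labelled and 2.23 and 2.19 in KLF4-labelled cells. The groups did not overlap, and arrays of a group differed little. Its rise was 13.3-fold in IRF8-labelled cells (3.74 ± 0.09, adjusted p = 1.67e-05) and 2.34-fold in KLF4-labelled cells (1.23 ± 0.09, adjusted p = 0.00131), with a direct difference of 2.51 ± 0.09 (adjusted p = 0.000132). A further, dimmer probe gave 3.42, 1.09 and 2.33 for the same differences. Both activators thus rose in both groups, each more in IRF8-labelled cells.

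The enzymes of this pathway moved less. Hexa, the alpha subunit of hexosaminidase A, gave 4.83 and 4.89 in control, 6.32 and 6.23 in IRF8-labelled and 4.98 and 5.04 in KLF4-labelled cells. It rose 2.67-fold in IRF8-labelled cells and differed by 0.15 ± 0.09 in KLF4-labelled cells (adjusted p = 0.263). Glb1, beta-galactosidase, differed by 1.40 ± 0.08 (adjusted p = 0.000153) and 0.18 ± 0.08 (adjusted p = 0.179) from control. For Hexa and Glb1 the direct difference was called, at 1.27 and 1.22. Asah1, acid ceramidase, rose in both groups, by 1.42 ± 0.08 and 0.66 ± 0.08, and its further probe gave 1.47 and 0.66. Arsa, arylsulfatase A, was called higher in IRF8-labelled cells only narrowly, at 0.41 ± 0.11 (adjusted p = 0.0272). Without control array 1 or 2 or IRF8-labelled array 1 or 2 its adjusted p was 0.122, 0.0626, 0.0540 and 0.134.

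Smpd1, acid sphingomyelinase, was a different case. It gave 3.60 and 3.61 in control, 3.55 and 3.61 in IRF8-labelled and 3.97 and 3.99 in KLF4-labelled cells. Only the KLF4-labelled arrays stood apart. It was called higher there than in control, at 0.37 ± 0.08 (adjusted p = 0.0375), and IRF8-labelled cells were below KLF4-labelled cells by 0.40 ± 0.08 on the log2 scale (adjusted p = 0.0122). Leaving out any of the 6 arrays took the first of these calls away, with adjusted p from 0.0948 to 0.170. Leaving out IRF8-labelled array 1 or 2 or KLF4-labelled array 1 or 2 took away the other, with adjusted p of 0.0925, 0.0528, 0.0625 and 0.0689. Gla, alpha-galactosidase A, gave 7.57 and 7.39 in control, 7.24 and 7.10 in IRF8-labelled and 7.48 and 6.96 in KLF4-labelled cells and was called in no comparison. Its difference between IRF8-labelled cells and control was -0.31, with an interval from -0.81 to 0.19.

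Lipid and sterol handling was the only one of the 9 groups of lysosome genes in which every gene, 3 of 3, was called higher in all 3 comparisons without the block. With the experiment as a block, the MiT factors and the V0 subunits were too. Of all genes tested, 25.8%, 10.4% and 23.7% were called higher in these comparisons without the block. Lipa, lysosomal acid lipase, which frees cholesterol and fatty acids from esters, gave 1.67 and 1.55 in control, 4.20 and 4.23 in IRF8-labelled and 3.69 and 3.61 in KLF4-labelled cells. The KLF4-labelled values came close to the IRF8-labelled ones without overlapping them. Lipa was 6.07-fold higher in IRF8-labelled cells (2.60 ± 0.09, adjusted p = 3.54e-05) and 4.11-fold higher in KLF4-labelled cells (2.04 ± 0.09, adjusted p = 0.000212). The direct difference was 0.56 ± 0.09 (adjusted p = 0.00541). Npc1, the membrane protein that exports cholesterol from the lysosome, gave -0.09 and -0.02 in control, 2.62 and 2.61 in IRF8-labelled and 0.91 and 0.94 in KLF4-labelled cells. All 3 groups were separate. Npc1 rose 6.33-fold (2.66 ± 0.08, adjusted p = 2.58e-05) and 1.97-fold (0.98 ± 0.08, adjusted p = 0.00169), with a direct difference of 1.68 ± 0.08 (adjusted p = 0.000211). Npc2, its soluble partner in the lumen, rose 2.71-fold and 1.41-fold. Its call in KLF4-labelled cells was narrow (0.50 ± 0.10, adjusted p = 0.0331), and the 3 of 3 there rested on it. Leaving out any of the 6 arrays took that call away, at differences from 0.43 to 0.56. It was also lost with only the 4 arrays compared (adjusted p = 0.0596) and with spike-in scaling (adjusted p = 0.826). Npc1 lost its call there with spike-in scaling too (adjusted p = 0.129).

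By the brightest probe of each gene, the glycosaminoglycan hydrolases had the lowest share called higher, 3 of 6 in IRF8-labelled and 1 of 6 in KLF4-labelled cells. These are 50% and 16.7%, beside 25.8% and 10.4% of all genes tested, and the latter 2 shares lie near each other. The ranking of the gene groups depends on the probe of Idua, whose dimmer probe was called higher in IRF8-labelled cells. Gusb, beta-glucuronidase, gave 5.22 and 5.24 in control, 6.09 and 6.05 in IRF8-labelled and 5.13 and 5.14 in KLF4-labelled cells. Its rise of 0.84 ± 0.08 in IRF8-labelled cells was called (adjusted p = 0.000631), as was the direct difference of 0.94 ± 0.08. Ids, iduronate sulfatase, rose by 0.95 ± 0.20 in IRF8-labelled cells (adjusted p = 0.0107). In KLF4-labelled cells Ids differed by 0.21 ± 0.20 (adjusted p = 0.480, and 0.0461 with the block). Naglu, which removes N-acetylglucosamine from heparan sulfate, gave 2.04 and 2.15 in control, 2.89 and 2.94 in IRF8-labelled and 2.85 and 3.12 in KLF4-labelled cells. Both transduced groups lay above control and overlapped each other. Naglu rose by 0.82 ± 0.12 (adjusted p = 0.00301) and 0.89 ± 0.12 (adjusted p = 0.0102), and the direct difference of -0.07 had an interval from -0.38 to 0.24.

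Galns, a sulfatase of keratan sulfate, was called in no comparison, with differences of -0.06 and -0.19 from control. Arsb, arylsulfatase B, gave -0.64 and -0.45 in control, -1.17 and -0.84 in IRF8-labelled and -1.32 and -0.91 in KLF4-labelled cells. Both transduced groups lay below control. The differences of -0.46 ± 0.19 and -0.57 ± 0.19 were not called (adjusted p = 0.0918 and 0.0981), but with the experiment as a block both were (adjusted p = 0.00697 and 0.0114). A further probe of Arsb was called lower in both groups without the block, at -0.43 and -0.62 (adjusted p = 0.00891 and 0.0110).

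Idua, alpha-iduronidase, depended on the probe. The brighter probe gave 4.01 and 3.29 in control, 3.43 and 2.89 in IRF8-labelled and 3.59 and 2.95 in KLF4-labelled cells. The array of experiment 2 was the lower in each group, and the groups overlapped. Its difference of -0.49 ± 0.36 between IRF8-labelled cells and control was not called (adjusted p = 0.285), but was with the experiment as a block (adjusted p = 0.00424), as was -0.38 in KLF4-labelled cells (adjusted p = 0.0181). The dimmer probe gave 1.23 and 1.58 in control, 2.52 and 2.89 in IRF8-labelled and 1.72 and 2.04 in KLF4-labelled cells. It rose with experiment 2 and was called higher in IRF8-labelled cells than in control, at 1.30 (adjusted p = 0.00374). Both probes carry a RefSeq accession of Idua, and no direction is given for this gene. Of the 12 lysosome genes with a further probe, Gaa was the other whose probes differed in sign, at -0.01 and 0.18 in KLF4-labelled cells. Further probes of Fuca1, Atp6v1a and Atp6ap1 gave 0.92, 0.44 and 0.60 in KLF4-labelled cells and were not called there (adjusted p = 0.0544, 0.122 and 0.0532).

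Of the hydrolases of glycoprotein sugars and glycogen, 3 of 5 rose and 1 fell in IRF8-labelled cells. These are 60% and 20%, beside 25.8% and 35.7% of all genes tested. Fuca1, alpha-fucosidase, gave 3.37 and 3.63 in control, 5.96 and 6.02 in IRF8-labelled and 4.42 and 4.61 in KLF4-labelled cells. The groups did not overlap. It rose 5.62-fold (2.49 ± 0.13, adjusted p = 0.000112) and 2.02-fold (1.01 ± 0.13, adjusted p = 0.00822), with a direct difference of 1.48 ± 0.13 (adjusted p = 0.00092). Man2b1, alpha-mannosidase, rose by 0.73 ± 0.09 and 0.40 ± 0.09 in the groups, and Manba, beta-mannosidase, by 0.45 ± 0.12 in IRF8-labelled cells. The call of Man2b1 in KLF4-labelled cells was lost on leaving out any of the 6 arrays, at differences from 0.363 to 0.442. Without control array 1, IRF8-labelled array 2 or KLF4-labelled array 1, the adjusted p of Manba was 0.115, 0.118 and 0.0503. In KLF4-labelled cells it differed by -0.12 (adjusted p = 0.483). The direct differences were called for Man2b1 and Manba, at 0.32 and 0.57. Leaving out any of the 6 arrays took the direct call of Man2b1 away, with adjusted p from 0.0648 to 0.194. That of Manba was lost without IRF8-labelled array 2, KLF4-labelled array 1 or KLF4-labelled array 2 (adjusted p = 0.0689, 0.0792 and 0.0505).

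Neu1, the sialidase that removes terminal sialic acids, was the gene that fell. It gave 6.86 and 6.78 in control, 6.42 and 6.33 in IRF8-labelled and 7.04 and 6.79 in KLF4-labelled cells. The IRF8-labelled arrays lay below all 4 others. The difference from control was -0.45 ± 0.12 (adjusted p = 0.0222) and the direct difference was -0.54 ± 0.12 (adjusted p = 0.0149). Without control array 1 or 2 or IRF8-labelled array 1 or 2 the adjusted p against control was 0.10, 0.0618, 0.0744 and 0.105, so that the call rested on all 4 arrays. The direct difference lost its call without IRF8-labelled array 1 or 2 or KLF4-labelled array 1 (adjusted p = 0.0626, 0.0769 and 0.0678). Gaa, the alpha-glucosidase that degrades glycogen, gave 4.98 and 5.21 in control, 4.83 and 4.98 in IRF8-labelled and 5.04 and 5.13 in KLF4-labelled cells. It was called in no comparison, and with the experiment as a block it was called lower in IRF8-labelled cells, at -0.20 (adjusted p = 0.0400).

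Granulin and the other hydrolases rose in IRF8-labelled cells in 3 of 4 cases (75%, beside 25.8% of all genes tested). Grn, which encodes progranulin, a secreted protein also cleaved in lysosomes, gave 5.28 and 5.31 in control, 7.56 and 7.33 in IRF8-labelled and 6.11 and 6.08 in KLF4-labelled cells. It was 4.44-fold higher in IRF8-labelled cells (2.15 ± 0.11, adjusted p = 9.9e-05) and 1.74-fold higher in KLF4-labelled cells (0.80 ± 0.11, adjusted p = 0.00924). Ppt1, which removes palmitate from proteins, rose 2.81-fold in IRF8-labelled cells and differed by 0.08 ± 0.09 in KLF4-labelled cells, with a direct difference of 1.41 ± 0.09 (adjusted p = 0.000454). Acp2, lysosomal acid phosphatase, rose by 1.07 ± 0.15 and 0.91 ± 0.15. Its direct difference of 0.16 ± 0.15 was not called (adjusted p = 0.425, and 0.0484 with the block). Tpp1, a tripeptidyl peptidase, differed by 0.22 ± 0.09 in IRF8-labelled cells (adjusted p = 0.0750, and 0.0298 with the block) and was called higher in KLF4-labelled cells, at 0.37 ± 0.09 (adjusted p = 0.0442). Each fit that left out 1 array took that call away, with adjusted p from 0.105 to 0.184.

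Membrane proteins rose in 4 of 5 cases in IRF8-labelled and in 3 of 5 in KLF4-labelled cells. These are 80% and 60%, beside 25.8% and 10.4% of all genes tested. Scarb2, the receptor that carries glucocerebrosidase to lysosomes, gave 1.28 and 1.42 in control, 3.08 and 3.06 in IRF8-labelled and 1.87 and 2.02 in KLF4-labelled cells. It rose 3.29-fold (1.72 ± 0.10, adjusted p = 0.000151) and 1.51-fold (0.60 ± 0.10, adjusted p = 0.0189). Mcoln1, the lysosomal calcium channel, rose by 0.93 ± 0.09 and 0.39 ± 0.09. Lamp1 and Lamp2, the abundant glycoproteins of the lysosomal wall, rose 1.75-fold and 1.65-fold in IRF8-labelled cells. In KLF4-labelled cells Lamp2 was called, at 0.45 ± 0.08 (adjusted p = 0.0231), and Lamp1 differed by 0.19 ± 0.12 (adjusted p = 0.321). The calls of Scarb2, Mcoln1 and Lamp2 there were all lost with spike-in scaling. Leaving out any of the 6 arrays took away those of Mcoln1 and Lamp2, at differences from 0.33 to 0.457 and from 0.412 to 0.495. Scarb2 lost its call in all of these fits but that without control array 2. A further probe of Lamp2 gave 1.29 and 0.67 for the differences from control. Cd63, a tetraspanin of late endosomes, gave 7.43 and 7.25 in control, 7.76 and 7.43 in IRF8-labelled and 7.44 and 7.05 in KLF4-labelled cells and was not called. With the experiment as a block it was called higher in IRF8-labelled cells than in control (0.25, adjusted p = 0.0419) and than in KLF4-labelled cells (0.35, adjusted p = 0.0201).

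Of the proton pump genes, 3 of 3 of V0 and 5 of 6 of V1 and the accessory subunit rose in IRF8-labelled cells. These are 100% and 83.3%, beside 25.8% of all genes tested. Atp6v0a1, the V0 subunit a1 that forms part of the proton path, gave 3.35 and 3.73 in control, 6.21 and 6.35 in IRF8-labelled and 3.82 and 4.07 in KLF4-labelled cells. IRF8-labelled arrays stood far above the others. The rise was 6.69-fold (2.74 ± 0.17, adjusted p = 0.000177) in IRF8-labelled cells. In KLF4-labelled cells the difference was 0.41 ± 0.17 (adjusted p = 0.147, and 0.0218 with the block). The direct difference was 2.33 ± 0.17 (adjusted p = 0.00055). Atp6v0d1, which couples the sectors, rose by 1.54 ± 0.12 and 0.55 ± 0.12, and Atp6v0c, the proteolipid of the rotor ring, by 1.07 ± 0.13 in IRF8-labelled cells. In KLF4-labelled cells Atp6v0c differed by 0.45 ± 0.13 (adjusted p = 0.0649, and 0.0150 with the block).

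In the V1 sector, Atp6v1b2, the B2 subunit, gave 0.76 and 0.86 in control, 2.86 and 2.81 in IRF8-labelled and 1.39 and 1.58 in KLF4-labelled cells. It rose 4.07-fold (2.03 ± 0.11, adjusted p = 0.000113) and 1.60-fold (0.68 ± 0.11, adjusted p = 0.0155). Atp6v1a, the catalytic A subunit, rose 2.31-fold and 1.38-fold, and Atp6ap1, the accessory subunit, 2.71-fold and 1.51-fold. Atp6v1d, of the central stalk, rose 1.90-fold in IRF8-labelled cells, and Atp6v1h, the regulatory H subunit, 1.37-fold. Without control array 1, IRF8-labelled array 1 or IRF8-labelled array 2, the adjusted p of Atp6v1h was 0.0628, 0.0509 and 0.0661. In KLF4-labelled cells Atp6v1d and Atp6v1h differed by 0.37 ± 0.15 (adjusted p = 0.148, and 0.0180 with the block) and 0.23 ± 0.10 (adjusted p = 0.152, and 0.0257). The direct difference of Atp6v1h was 0.22 ± 0.10 (adjusted p = 0.112, and 0.0184 with the block). Atp6v1c1, the C1 subunit, gave 3.13 and 3.44 in control, 3.50 and 3.77 in IRF8-labelled and 3.52 and 3.75 in KLF4-labelled cells. Its nearly equal differences of 0.35 and 0.36 from control were not called (adjusted p = 0.124 and 0.186), but were with the block (adjusted p = 0.00481 and 0.0129). The pump genes thus differed in size, from 1.37-fold for Atp6v1h to 6.69-fold for Atp6v0a1 among those called in IRF8-labelled cells.

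**Figure D3:**
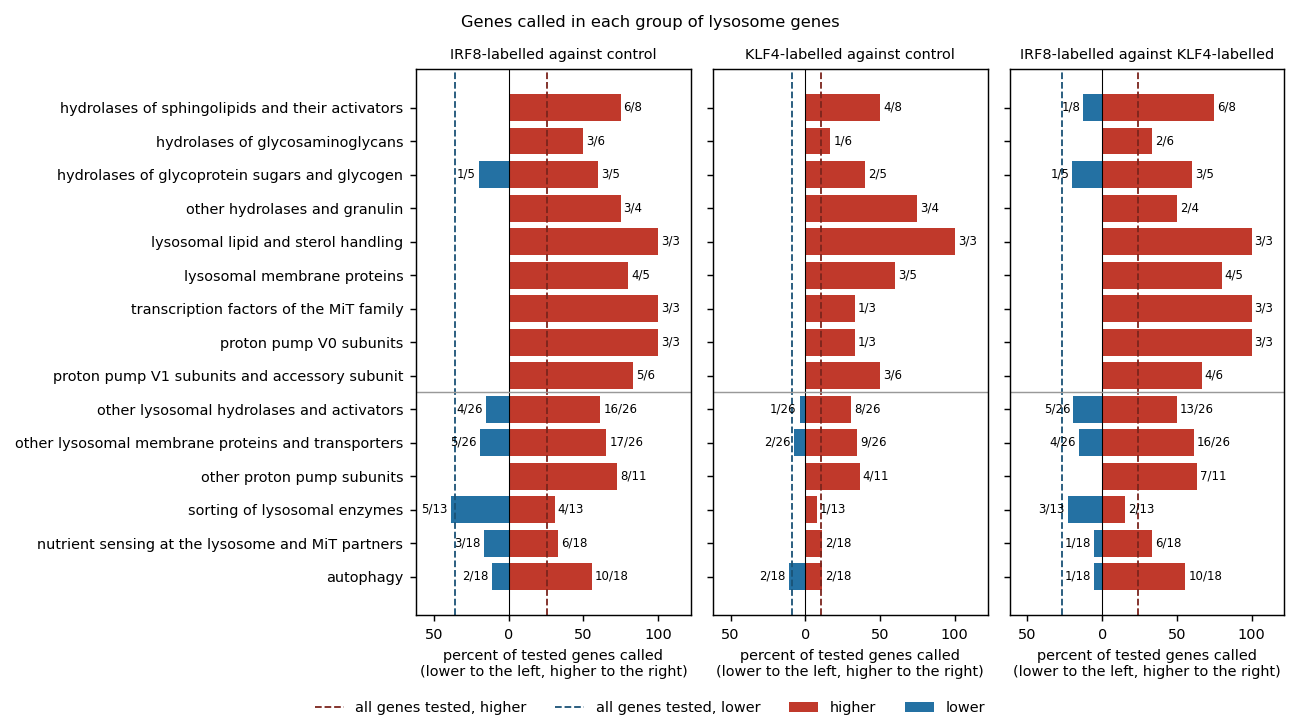
Percent of the tested genes of each group that were called higher (bars to the right) or lower (to the left) in the 3 comparisons, with counts beside the bars and the share of all genes tested as dashed lines. The 9 groups above the grey line hold the 43 lysosome genes and the 6 below it other genes of the pathway; MiT factors, V0 subunits and lipid genes reach 3 of 3 in IRF8-labelled cells.

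Values of these genes also differed between the experiments. The value of experiment 2 minus that of experiment 1 had the same sign in all 3 groups for 30 of the 43 genes (69.8%) and for 63.1% of all genes tested. It ran from -0.72 to 0.38 in control, from -0.69 to 0.36 in IRF8-labelled and from -0.64 to 0.41 in KLF4-labelled cells. The medians of 0.05, -0.01 and 0.02 were small, and shifts went either way. Array number, slide and experiment coincide here and cannot be told apart. Taking the experiment as a block raised the genes called higher in KLF4-labelled cells from 21 to 29 and those called lower from 0 to 2. In IRF8-labelled cells it gave 36 higher and 4 lower, and in the direct comparison 33 and 2. It took no call away from a lysosome gene.

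**Figure D4:**
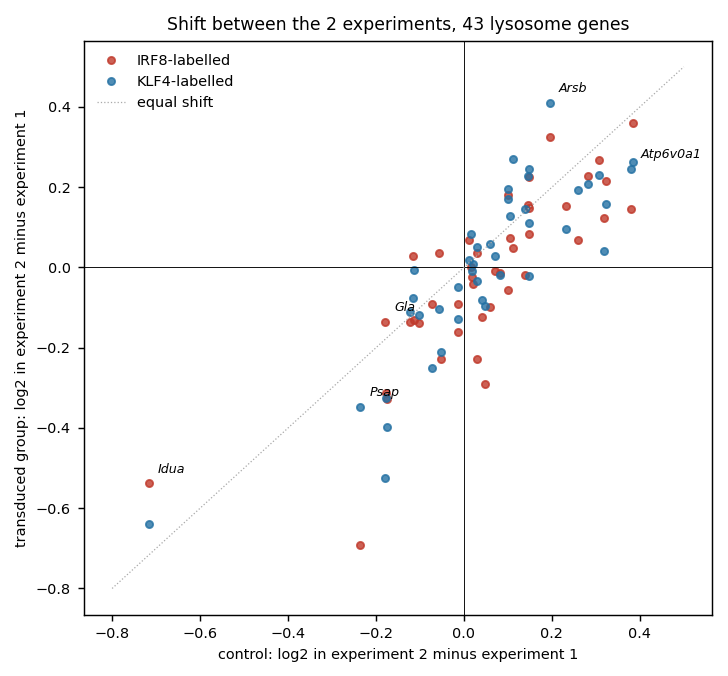
Each point is a lysosome gene: the log2 signal in experiment 2 minus that in experiment 1 in control (horizontal) against the same shift in IRF8-labelled or KLF4-labelled cells (vertical), with the dotted line where both are equal. Idua lies at the lower left in both groups, near -0.72 in control, and Ids and Atp6v0a1, at 0.38 in control, at the far right.

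Other genes of the pathway, 125 in 6 lists of which 112 were tested, were counted the same way. In IRF8-labelled cells 61 were called higher and 19 lower (54.5% and 17%, beside 25.8% and 35.7% of all genes tested), with a median of 0.49 against -0.13. In KLF4-labelled cells 26 were called higher and 5 lower (23.2% and 4.46%, beside 10.4% and 8.85%), with a median of 0.12 against -0.16. In the direct comparison 54 were called higher and 14 lower (48.2% and 12.5%, beside 23.7% and 26.8%), with a median of 0.35 against -0.01. The 31 calls in KLF4-labelled cells became 15 and 20 without control array 1 or 2, 19 and 20 without IRF8-labelled array 1 or 2, 13 and 15 without KLF4-labelled array 1 or 2, and 57 with the experiment as a block.

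Other hydrolases and activators, 26 tested, rose in 16 and fell in 4 cases in IRF8-labelled cells. These are 61.5% and 15.4%, beside 25.8% and 35.7% of all genes tested. Plbd1, a phospholipase B-like protein, gave 2.13 and 2.23 in IRF8-labelled cells and was not well above background on any array of control or KLF4-labelled cells, so that its lower call between those groups carries no fold. It was at least 128-fold higher than control and at least 164-fold higher than in KLF4-labelled cells. Where a group was below background on both arrays, such a fold is the mean of the bright group over the lowest signal well above background and is a lower bound. Naaa, which hydrolyses N-acylethanolamines, gave 1.44 and 1.43 in control, 8.03 and 7.72 in IRF8-labelled and 3.61 and 3.53 in KLF4-labelled cells. The rises were 86.8-fold (6.44 ± 0.13, adjusted p = 9.44e-06) and 4.38-fold (2.13 ± 0.13, adjusted p = 0.000554). Gpr137b, a lysosomal membrane protein counted in this list, rose by 5.04 ± 0.08 and 4.45 ± 0.08. Engase, which trims N-glycans in the cytosol, fell by 0.85 ± 0.10 on the log2 scale in IRF8-labelled cells.

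Smpdl3b and Acp5 moved in opposite directions. Smpdl3b, a sphingomyelinase-like phosphodiesterase, gave -0.80 and -0.92 in control, -1.68 and -1.62 in IRF8-labelled and -0.05 and -0.23 in KLF4-labelled cells. It was lower in IRF8-labelled cells, at -0.79 ± 0.11 (adjusted p = 0.00213), and higher in KLF4-labelled cells, at 0.72 ± 0.11 (adjusted p = 0.0129). Acp5, the tartrate-resistant acid phosphatase of osteoclasts and macrophages, gave 0.25 and 0.17 in control, -0.05 and -0.17 in IRF8-labelled and 1.63 and 1.48 in KLF4-labelled cells. Its differences were -0.32 ± 0.10 (adjusted p = 0.0412) and 1.34 ± 0.10 (adjusted p = 0.00128). The direct differences of -1.51 ± 0.11 and -1.67 ± 0.10 were called (adjusted p = 0.000507 and 0.000352).

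Other membrane proteins and transporters, 26 tested, rose in 17 and fell in 5 cases in IRF8-labelled cells, against 9 and 2 cases in KLF4-labelled cells. In IRF8-labelled cells these are 65.4% and 19.2%, beside 25.8% and 35.7% of all genes tested. In KLF4-labelled cells 34.6% were higher, beside 10.4%, and 7.69% lower, near the 8.85% of all genes tested. Slc11a1, which pumps divalent metals out of phagosomes, gave 2.92 and 3.09 in IRF8-labelled and 3.22 and 3.45 in KLF4-labelled cells and was below background in control. It was at least 226-fold and at least 284-fold higher than control, and the direct difference of -0.33 ± 0.35 was not called (adjusted p = 0.482). Mcoln2, a relative of Mcoln1, was also below background in control and was at least 87.7-fold and at least 22.2-fold higher. Slc15a3, a lysosomal peptide and histidine transporter, was higher in the direct comparison by 1.87 ± 0.30 (adjusted p = 0.00597). Lamp3 fell to 0.333 of control (-1.59 ± 0.10, adjusted p = 0.00018) in IRF8-labelled cells, and Abca2, a lipid transporter, by 1.42 ± 0.12 on the log2 scale. Tpcn1, a cation channel of endolysosomes, was 1.99-fold lower in IRF8-labelled cells when they were set against KLF4-labelled cells (adjusted p = 0.0029). Laptm4b and Spns1 were called lower in KLF4-labelled cells, at -0.56 ± 0.08 and -0.40 ± 0.09.

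Of 11 further pump genes tested, 8 rose in IRF8-labelled and 4 in KLF4-labelled cells. These shares of 72.7% and 36.4% stand beside 25.8% and 10.4% of all genes tested. Atp6v0d2, the d2 subunit known from osteoclasts and macrophages, was below background in control, gave 3.09 and 3.19 in IRF8-labelled and 2.13 and 2.25 in KLF4-labelled cells, and was at least 248-fold and at least 128-fold higher. Tcirg1, the a3 subunit, rose by 1.76 ± 0.11 and 0.73 ± 0.11. Atp6v0a2 was higher in IRF8-labelled cells in the direct comparison by 1.01 ± 0.09 (adjusted p = 0.000966). The isoforms a1, a2 and a3 thus all were called higher in IRF8-labelled cells in the direct comparison.

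Of 13 tested genes that sort enzymes to the lysosome, 4 rose and 5 fell in IRF8-labelled cells (30.8% and 38.5%, beside 25.8% and 35.7% of all genes tested), and 1 rose in KLF4-labelled cells (7.69%, beside 10.4%). These shares lie near those of all genes tested. The gene that rose in both was Igf2r, the cation-independent mannose 6-phosphate receptor, which was below background in control and at least 43.1-fold and at least 45-fold higher. Its arrays gave 0.59 and 0.64 in IRF8-labelled and 0.64 and 0.72 in KLF4-labelled cells. Gnptab, the phosphotransferase that makes the mannose 6-phosphate mark, fell by 1.23 ± 0.20 on the log2 scale in IRF8-labelled cells (adjusted p = 0.00442), and Sort1, a sorting receptor, by 0.96 ± 0.30 (adjusted p = 0.0405). The adaptor genes Ap3d1 and Ap3b1 rose by 0.99 ± 0.14 and 0.78 ± 0.08 there.

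**Figure D5:**
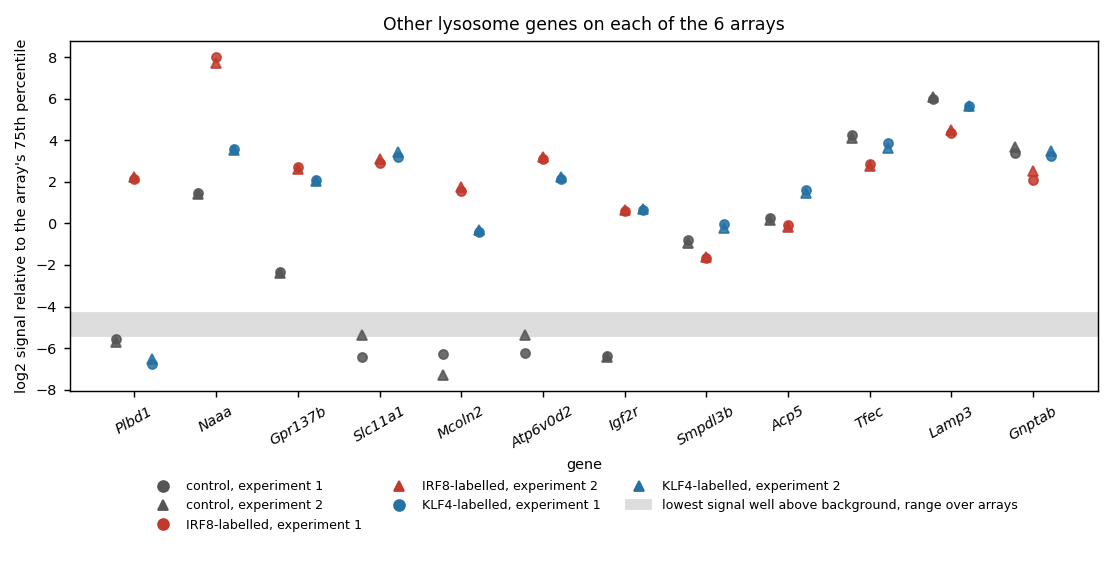
Log2 signal relative to the 75th percentile of the array for 12 other genes of the pathway, 1 point per array, with circles for experiment 1 and triangles for experiment 2; the grey band spans the lowest signal well above background on the 6 arrays. Plbd1, Slc11a1, Mcoln2, Atp6v0d2 and Igf2r were not well above background in control, and Smpdl3b and Acp5 lie below control in IRF8-labelled and above it in KLF4-labelled cells.

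Genes of nutrient sensing at the lysosome were called higher in 6 and lower in 3 of 18 cases in IRF8-labelled cells (33.3% and 16.7%, beside 25.8% and 35.7% of all genes tested). In KLF4-labelled cells 2 were called higher (11.1%, near the 10.4% of all genes tested). Fnip2, a folliculin partner, gave 0.28 and 0.68 in control, 3.36 and 3.55 in IRF8-labelled and 1.36 and 1.64 in KLF4-labelled cells, which is 7.87-fold and 2.03-fold. Rragc, a Rag GTPase that holds MiT factors and mTORC1 at the lysosome, rose by 1.56 ± 0.12 in IRF8-labelled cells, whereas Rragb fell by 1.19 ± 0.23 on the log2 scale. Lamtor3 rose by 1.03 ± 0.09 and 0.41 ± 0.09. Tfec, the fourth member of the MiT family, moved against the other 3. It gave 4.24 and 4.10 in control, 2.88 and 2.77 in IRF8-labelled and 3.90 and 3.65 in KLF4-labelled cells. Its difference from control was -1.34 ± 0.12 (adjusted p = 0.000601) in IRF8-labelled cells and -0.39 ± 0.12 (adjusted p = 0.0833, and 0.0144 with the block) in KLF4-labelled cells.

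Of 18 autophagy genes tested, 10 rose and 2 fell in IRF8-labelled cells (55.6% and 11.1%, beside 25.8% and 35.7% of all genes tested). In KLF4-labelled cells 2 rose and 2 fell (11.1% each, near the 10.4% and 8.85% of all genes tested). Map1lc3a, which encodes an LC3 protein of the autophagosome membrane, gave -0.73 and -0.77 in control, 1.21 and 1.10 in IRF8-labelled and 0.14 and 0.12 in KLF4-labelled cells. It rose 3.74-fold and 1.84-fold. Sqstm1, the cargo receptor p62, rose 3.30-fold and 1.96-fold. Rab7, a GTPase of late endosomes, was higher in IRF8-labelled cells by 1.03 in the direct comparison, with an SE of 0.09. Atg9a fell by 0.42 ± 0.12 on the log2 scale in IRF8-labelled cells, Vps11 by 0.69 ± 0.10 in KLF4-labelled cells, and Wipi2 by 0.27 ± 0.08 and 0.36 ± 0.08 in these groups.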

How the data were processed

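Total RNA of 6 samples, 2 in each of 3 groups, was hybridised to 1-colour mouse arrays of 62976 spots. The authors deposited spot intensity values that Agilent Feature Extraction 10.7.3.1 had corrected for background and for trends across the array, per the file headers. They also deposited a value table, which matched these intensity values times 1 factor per array (0.642 to 1.39), apart from 178 to 221 probes per array that differed by over 1%.

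Spots of a probe were averaged and log2 values were set against the 75th percentile of non-control spots on each array. Of 28390 probes with an accession of RefSeq form, 26762 matched a RefSeq gene, giving 20284 genes. A gene entered the test if some group had its brightest probe well above background on each of that group's arrays (13247 genes). All 6 arrays were fitted together with limma 3.58.1 in R 4.3.3 (3 residual degrees of freedom), with Benjamini-Hochberg adjustment over all genes tested. Errors after ± are standard errors of that fit. The fit was tested on simulated data. The number of arrays limits the precision.

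The genes and lists were chosen with earlier results of these data known. Named in full were the lysosome genes, with up to 6 of the largest rises and falls per comparison, the MiT factors, genes called in opposite directions, Irf8 and Klf4, and, per other list, up to 2 of the largest rises and falls. Markers chosen after their values were seen are named as such. Some marker lists are not reported here.

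Same-numbered arrays share an experiment in the labels and a slide. Their deviations from group means correlated over all genes tested (r = 0.282, 0.321 and 0.391) and more strongly over the lysosome genes (r = 0.816, 0.853 and 0.814). The numbers therefore pair the samples, and the main fit leaves this pairing out. The fit with the experiment as a block is given where it changed the call of a lysosome gene. Alternatives were quantile, median and spike-in scaling, normexp, the deposited value table, filters, probe choice, limma settings, the 4 arrays compared, the block, and leaving out each array.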

Additional observations from a re-analysis of the deposited data

Results flagged for a closer look

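Of the genes described, Smpdl3b and Acp5 were called in opposite directions in the 2 transduced groups, and the test of the difference itself was called for both. Smpdl3b was -0.79 from control in IRF8-labelled and 0.72 in KLF4-labelled cells, and the direct difference, IRF8-labelled minus KLF4-labelled, was -1.51 (limma, adjusted p = 0.000507). Acp5 was -0.32 and 1.34 from control, and the direct difference was -1.67 (limma, adjusted p = 0.000352). The lower call of Acp5 in IRF8-labelled cells was narrow, and its opposite directions rest on that call. For both genes the 3 groups did not overlap on any array.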

How the results depend on the processing

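With spike-in scaling, 21 lysosome genes were called higher and 0 lower in IRF8-labelled cells, 3 higher in KLF4-labelled cells, and 11 higher and 0 lower in the direct comparison. The calls among other pathway genes were then 43, 9 and 19. Without the filter on dim probes, 9 lysosome genes were called higher in KLF4-labelled cells, 0 lower in IRF8-labelled cells and 0 lower in the direct comparison, and 13 other pathway genes were called in KLF4-labelled cells. This alternative tests more genes. With only the 4 arrays compared, 12 were called higher in KLF4-labelled cells. This one has fewer arrays. With normexp, 20 other pathway genes were called in KLF4-labelled cells. The normexp fit used median signals and was chosen after seeing the data, since the planned fit on mean signals could not be run. With the mean of a gene's probes or its dimmest passing probe, 2 lysosome genes were called lower in IRF8-labelled and 1 in KLF4-labelled cells. Idua then turned direction, to 0.41 and 1.30 in IRF8-labelled cells and to 0.36 and 0.83 in the direct comparison. With the experiment as a replicate block, the pairing of arrays, 4 lysosome genes were called lower in IRF8-labelled and 29 higher and 2 lower in KLF4-labelled cells, with 57 other pathway genes called there. Leaving out each array gave 0 to 1 called lower in IRF8-labelled cells, 5 to 13 higher in KLF4-labelled cells, 0 to 2 lower in the direct comparison, and 13 to 20 other pathway genes in KLF4-labelled cells. Apart from what these constructions show, the cause was not tested. Across every alternative 21 of 34, 3 of 21 and 11 of 32 calls were kept, the 3 being Psap, Gm2a and Lipa. Genes below background in a group have only a lower bound on their fold.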
